A study of Homo sapiens with 38 samples.

Results

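The messenger RNAs of ATG8-family genes, of autophagy receptors and of 2 early autophagy factors were followed through the silencing of VPS4A and VPS4B in HCT116 cells, a human colorectal cancer line. Members were chosen by symbol, from a list of 10, after RefSeq identifiers had been matched to symbols. Of these, 9 were measured, among 12627 genes. They were GABARAP, GABARAPL1, GABARAPL2, ULK1, WIPI1, OPTN, CALCOCO2, TAX1BP1 and NBR1, and MAP1LC3B is not analysed here. Of 7 ATG8-family genes looked up by symbol, 3 were found, all of the GABARAP subfamily. No LC3 gene was among them, so statements on the ATG8 family cover the GABARAP subfamily only.

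In macroautophagy, ATG8 proteins (the LC3 and GABARAP subfamilies) are conjugated to a lipid of the growing phagophore. Receptors bind both cargo and ATG8 and so bring ubiquitinated proteins, damaged mitochondria or bacteria into the autophagosome. VPS4A and VPS4B are paralogous ATPases that take the ESCRT machinery off membranes. ESCRT closes the phagophore and sorts endocytic cargo at endosomes, and autophagosomes end in the lysosome.

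RNA was collected 72 h after transfection in 9 conditions. NT cells were not transfected, siCTRL#1 cells received 60 nM of a non-targeting duplex, and siCTRL#2 cells received a second non-targeting duplex whose dose the labels do not give. Single silencing used 30 nM of siVPS4A#1, siVPS4A#2, siVPS4B#1 or siVPS4B#2 together with 30 nM of siCTRL#1. Combined silencing used 30 nM of each of both on-target duplexes: siVPS4A+B#1 joins siVPS4A#2 and siVPS4B#1, and siVPS4A+B#2 joins siVPS4A#1 and siVPS4B#2. All libraries come from 1 cell line, and the labels mark the replicate numbers as batches a to e.

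The values rest on 37 of 38 libraries, 5 for siCTRL#1 and 4 for every other condition, with 5090666 to 11035293 reads each. The library labelled siVPS4A#1 replicate 2 was left out by the rule that chose the genes. It held 669257 reads, and its VPS4B level rested on 1 read (1.62 RPM, reads per 1000000), against 21.4 to 32.1 RPM in the other siVPS4A#1 libraries. SQSTM1 stood at 6422, GABARAPL1 at 150.5 and OPTN at 66.35 RPM in that library.

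Levels are in RPM after TMM scaling, a correction of library size for composition. Each gene was read through its own amplicon, so levels are compared between conditions and not between genes. Calls of higher or lower needed a change of 1.5-fold or more together with a limma adjusted p under 0.05 over all 12627 genes, and every adjusted p printed is limma's. Log2 fold changes are on the scale of log2(RPM + 1), with their SE. The RNA is that of whole cultures, so that fewer cells with a transcript and less of it per cell cannot be told apart. The study took its replicates from independent experiments.

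The targeted genes followed the labels. VPS4A had 190.0 ± 14.0 (SD, n = 5) RPM in siCTRL#1 cells, 2.19 ± 0.90 (SD, n = 4) with siVPS4A#1, 7.88 ± 2.22 with siVPS4A#2, 19.96 ± 10.6 with siVPS4A+B#1 and 5.03 ± 1.96 with siVPS4A+B#2. VPS4B had 20.7 ± 3.54 (SD, n = 5) in siCTRL#1 cells and between 0.13 and 1.57 in all 16 libraries of the siVPS4B#1, siVPS4B#2 and combined conditions. The pairs thus differed in how much VPS4A messenger RNA was left, with more in siVPS4A+B#1. VPS4B lay the other way, at 0.54 ± 0.33 RPM with siVPS4A+B#1 and 1.285 ± 0.31 with siVPS4A+B#2 (SD, n = 4 each). That log2 difference was -0.58 ± 0.20 (SE, adjusted p = 0.026), under the fold threshold and on few reads.

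Among 5 epithelial markers (EPCAM, KRT8, KRT18, KRT19 and CDH1) all were detected in every library, with a summed level of 4331 to 8167 RPM. Of 3 leukocyte markers only CD68 was measured, and it ranged from 40.5 to 176.3 in the combined conditions and from 4.37 to 25.3 elsewhere. Of 3 fibroblast markers COL1A1 and PDGFRB were measured. Their sum ranged from 23.01 to 85.37 in the combined conditions and from 8.12 to 61.2 elsewhere, and PDGFRB alone never passed 1.10. The only endothelial marker measured, PECAM1, stayed at or below 1.75. CD68 was thus higher in every library of combined silencing than elsewhere, and its part in the results below was not tested.

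The promoters of the 3 genes called higher in every comparison of combined silencing with NT and siCTRL#1 are printed here. Each window runs from 250 bases before to 50 bases after the RefSeq transcription start, from the gene's strand, on GRCh38.p14. Capitals mark motif matches found by a search of both strands. GABARAPL1 lies at chr12:10212627-10212926 (plus strand), OPTN at chr10:13099832-13100131 (plus strand, the first of both listed starts) and CALCOCO2 at chr17:48830785-48831084 (plus strand).
GABARAPL1: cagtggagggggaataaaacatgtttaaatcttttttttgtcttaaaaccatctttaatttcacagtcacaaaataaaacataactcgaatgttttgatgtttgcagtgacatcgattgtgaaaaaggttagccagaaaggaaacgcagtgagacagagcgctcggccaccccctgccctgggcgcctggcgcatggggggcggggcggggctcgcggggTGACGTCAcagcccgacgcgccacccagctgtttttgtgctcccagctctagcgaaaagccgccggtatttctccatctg
OPTN: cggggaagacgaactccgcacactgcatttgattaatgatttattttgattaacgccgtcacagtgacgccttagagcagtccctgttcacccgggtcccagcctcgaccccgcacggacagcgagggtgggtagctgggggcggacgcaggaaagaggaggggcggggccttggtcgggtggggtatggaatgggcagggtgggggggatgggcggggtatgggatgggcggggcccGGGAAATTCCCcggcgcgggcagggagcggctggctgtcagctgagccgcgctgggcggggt
CALCOCO2: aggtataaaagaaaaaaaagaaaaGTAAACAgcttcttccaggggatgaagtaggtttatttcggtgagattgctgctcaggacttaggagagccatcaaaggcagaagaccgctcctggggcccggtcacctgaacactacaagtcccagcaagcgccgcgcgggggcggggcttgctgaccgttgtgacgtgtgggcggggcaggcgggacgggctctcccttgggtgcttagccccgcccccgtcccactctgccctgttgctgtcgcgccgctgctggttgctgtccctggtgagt

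The E-box CACGTG, which MiT/TFE factors such as TFEB bind, and the AP-1 motif TGANTCA had no match in any promoter window of the 9 genes. They were present in 7.26% and 7.71% of 35116 RefSeq promoter windows of that length. The forkhead motif TGTTTAC, in 3.42% of windows, matched CALCOCO2 in its reverse form GTAAACA, 226 bases before the start. After the sequences were read, 2 more motifs were searched. The cyclic AMP response element TGACGTCA, in 1.85% of windows, matched GABARAPL1 30 bases before the start. The NF-kB consensus, in 11.3% of windows, matched GABARAPL2 as GGGGTCCTCC, and OPTN through a pair of overlapping matches on opposite strands, GGGAAATTCC and GGAAATTCCC, 12 and 11 bases before the start. These matches describe letters in the windows and no binding was measured.

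Against siCTRL#1, members were called higher after combined silencing, GABARAPL1, OPTN and CALCOCO2 with both pairs, WIPI1 and ULK1 with siVPS4A+B#1 and GABARAP with siVPS4A+B#2. With siVPS4A+B#1, 5 of 9 genes were called higher and 0 lower (0 lower also at an unadjusted limma p under 0.05 and by edgeR and DESeq2), where 10.6% of all genes were called higher and 11.5% lower. With siVPS4A+B#2, 4 of 9 were called higher and 0 lower (1 lower at an unadjusted limma p under 0.05, TAX1BP1, and 0 by edgeR and DESeq2), against 12.8% and 15.9% of all genes. The median log2 fold change of the 9 genes was 0.61 and 0.57 in these comparisons, beside -0.02 for all genes in each. The members were chosen with earlier results of these data known, so the counts describe them and are no test of the list. Without the fold requirement, at adjusted p under 0.05, all 9 stood higher with siVPS4A+B#1 (18.3% of all genes) and 5 stood higher and 1 lower with siVPS4A+B#2 (21.6% of all genes higher). Between the control duplexes, siCTRL#2 against siCTRL#1 gave 3 members higher and 2 lower at the same threshold. For that comparison the share of all genes at this threshold is not given here.

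None of the 4 single duplexes gave a called member against siCTRL#1 by limma, by edgeR or by DESeq2. The share of all genes called higher was 9.57% for siVPS4A#1, 0.0396% for siVPS4A#2, 5.61% for siVPS4B#1 and 3.01% for siVPS4B#2. At an unadjusted limma p under 0.05, 4 members stood higher with siVPS4A#1, 5 with siVPS4B#1 and 2 with siVPS4B#2, and 1 stood lower with siVPS4A#2. The share of all genes at that threshold is not given here, so these counts cannot be set beside a background. With siCTRL#2 as the reference instead, chosen after the data were seen, OPTN was called higher with siVPS4A#1 and with siVPS4B#2, WIPI1 and TAX1BP1 with siVPS4B#1, and GABARAPL1 lower with siVPS4A#2. Leaving out libraries gave at most 1 call for a single duplex: GABARAP with siVPS4A#1 without its replicate 5, WIPI1 with siVPS4B#1 without replicate 3 (all libraries, or that of siCTRL#1 or siVPS4B#1 alone), and OPTN with siVPS4B#2 without replicate 4. With the omitted library included under its label, siVPS4A#1 gave 2, GABARAP and OPTN. All comparisons with siCTRL#1 share its 5 libraries.

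Against NT cells more members passed. With siCTRL#1 alone, 7 of 9 members already stood above NT (50.5% of all genes did). Their median log2 difference was 0.21, beside 0.003 for all genes, and 0 were called. The counts were 2 of 9 with siVPS4A#1 (11.6% of all genes called higher), 0 with siVPS4A#2 (4.32%), 4 with siVPS4B#1 (10.8%), 1 with siVPS4B#2 (7.63%), 6 with siVPS4A+B#1 (12.6%) and 5 with siVPS4A+B#2 (13.2%), all of them higher. For siVPS4A#2, edgeR and DESeq2 also called 0, and 1 member had an unadjusted limma p under 0.05. The siVPS4B#1 count was 2 without replicate 1, NT replicate 1 or siVPS4B#1 replicate 3, and that of siVPS4B#2 was 2 (GABARAP and OPTN) without the whole of replicate 1, 0 without its own library of that replicate, 2 without its replicate 3 or 4 and 3 without NT replicate 1. GABARAPL1, OPTN and CALCOCO2 were called higher in all 4 comparisons of the pairs with NT and siCTRL#1, which holds for 3.96% of all genes.

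**Figure D1:**
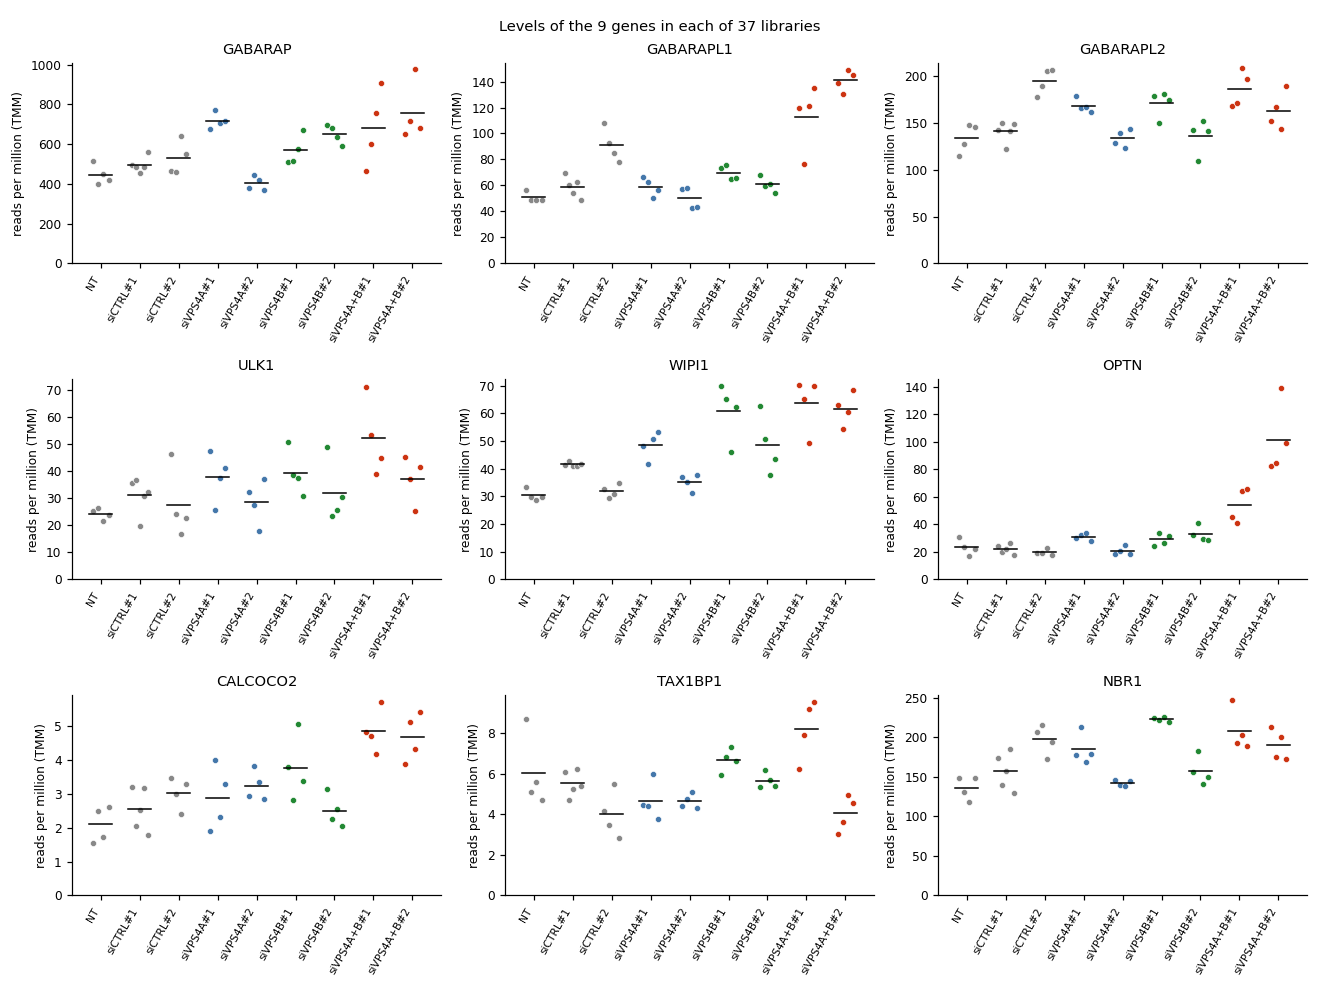
RPM (linear axis from 0) of the 9 genes in 37 libraries, by condition; points are libraries, bars are means, and grey, blue, green and red stand for controls, VPS4A, VPS4B and combined silencing. All 8 libraries of combined silencing stand above all others for OPTN, and for GABARAPL1 they overlap with siCTRL#2.

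The ATG8-family genes differed from one another. GABARAPL1 (NM_031412, chromosome 12, 10365057 to 10375727 on the plus strand of GRCh37), which has the cyclic AMP element in its printed promoter, encodes a GABARAP-subfamily protein that joins the autophagosome membrane. It read 69.87, 60.51, 54.36, 62.4 and 48.5 RPM in the siCTRL#1 libraries and 56.7, 49.0, 49.1 and 48.9 in NT. The siVPS4A+B#1 libraries had 119.4, 76.2, 121.0 and 134.8, and the siVPS4A+B#2 libraries had 138.9, 130.6, 148.9 and 144.8. All 8 libraries of combined silencing were above all NT and siCTRL#1 libraries, and the lowest of them was siVPS4A+B#1 replicate 2.

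Against siCTRL#1, GABARAPL1 was higher by 0.86 ± 0.13 (SE) on the log2 scale with siVPS4A+B#1 (adjusted p = 1.2e-06) and by 1.21 ± 0.13 with siVPS4A+B#2 (adjusted p = 6.3e-10). Within batches the difference ranged from 0.33 to 1.14 for the first pair and from 0.98 to 1.44 for the second, higher in 4 of 4 batches each. Against NT the differences were 1.10 ± 0.13 (adjusted p = 1.0e-08) and 1.45 ± 0.13 (adjusted p = 1.1e-11). Between the pairs, siVPS4A+B#1 minus siVPS4A+B#2 was -0.35 (95% interval -0.62 to -0.08, adjusted p = 0.045), a fold under the threshold.

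GABARAPL1 also stood high with the second control duplex. The siCTRL#2 libraries read 107.7, 92.7, 85.2 and 78.2 RPM, all above the siCTRL#1 libraries. The difference was 0.57 ± 0.13 (adjusted p = 0.00071), a fold of 1.49 that misses the threshold of 1.5. With siCTRL#2 in place of siCTRL#1, a reference chosen after the data were seen, GABARAPL1 was called with siVPS4A+B#2 (0.63, adjusted p = 0.000128) and was not called with siVPS4A+B#1 (0.29, adjusted p = 0.079). In order of mean level, siVPS4A#2 (50.1), NT (50.9), siVPS4A#1 (59.1), siCTRL#1 (59.1), siVPS4B#2 (60.9) and siVPS4B#1 (69.9) overlapped with their neighbours, siCTRL#2 (91.0) stood apart from siVPS4B#1, and siCTRL#2, siVPS4A+B#1 (112.9) and siVPS4A+B#2 (140.8) overlapped again. GABARAPL3, annotated as a processed pseudogene on chromosome 15, is a near-identical copy, and whether the amplicon tells them apart is not given in the sources used here.

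GABARAP (NM_007278, chromosome 17, 7143327 to 7145768, minus strand), the founding member of its subfamily, varied with the duplex. Its siCTRL#1 libraries read 493.1, 482.4, 453.0, 482.4 and 558.4 RPM, and the siVPS4A+B#2 libraries 652.7, 717.5, 977.7 and 681.9. Those of siVPS4A+B#1 were spread from 466.1 to 908.4 and overlapped with siCTRL#1. With siVPS4A+B#2 the gene was called higher by 0.63 ± 0.14 (adjusted p = 0.00029), a call lost by scaling with library totals, without replicate 3 (lowest value 0.49), without the siVPS4A+B#2 library of that replicate or the siCTRL#1 library of that replicate, and against siCTRL#2 (0.51).

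The GABARAP level with siVPS4A#1 alone lay in the range of the pair that contains this duplex. It read 676.6, 769.8, 705.9 and 716.1 with siVPS4A#1, and the pair differed from that duplex by 0.11 (95% interval -0.19 to 0.41). With siVPS4A#2 it read 377.2, 445.8, 417.9 and 370.4. These groups do not overlap, and the duplexes to the same target differed by 0.79 ± 0.15 (adjusted p = 5.3e-05). This was 1 of 2 members called higher in siVPS4A#1 against siVPS4A#2, where 9.92% of all genes were.

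GABARAPL2 (NM_007285, chromosome 16, 75600273 to 75611779, plus strand), the third member of the subfamily, was called in no comparison with siCTRL#1 or NT. Its condition means ran from 133.7 to 194.8 RPM, and the highest mean was that of siCTRL#2. The siVPS4A+B#1 libraries read 168.1, 171.3, 208.9 and 196.4, all above the siCTRL#1 libraries (122.4 to 149.8), with a difference of 0.40 ± 0.11 (adjusted p = 0.0044) under the fold threshold. With siVPS4A+B#2 the difference was 0.21 (95% interval -0.02 to 0.43). Against siCTRL#2 both differences lay below 0 (-0.07 and -0.26).

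The genes of early steps followed next. ULK1 (NM_003565, chromosome 12, 132379167 to 132407695, plus strand) encodes the kinase that starts autophagosome formation. It read 71.4, 53.55, 39.1 and 44.8 RPM with siVPS4A+B#1 against 35.7, 36.7, 19.8, 31.0 and 32.4 in siCTRL#1 cells, without overlap. The difference was 0.75 ± 0.16 (adjusted p = 0.00028), from 0.52 to 0.98 within batches. With siVPS4A+B#2 it read 45.2, 37.1, 25.3 and 41.5, the groups overlapped, and the difference was 0.28 (95% interval -0.04 to 0.61). Library size alone as the scaling lowered the median of all genes by 0.14 with siVPS4A+B#1 and ended the call there (0.58). Against NT, ULK1 was called higher with siVPS4A+B#1 (1.04 ± 0.17, adjusted p = 2.8e-06) and with siVPS4B#1 (0.66 ± 0.17, adjusted p = 0.0017). The siVPS4B#1 call was lost without replicate 1 (0.55), without the NT library of that replicate (0.52) and without siVPS4B#1 replicate 3 (0.53). The siCTRL#2 libraries read 16.7 to 46.6 RPM and overlapped with siVPS4A+B#1. With siCTRL#2 as the reference, chosen after the data were seen, ULK1 was called with siVPS4A+B#1 (0.96) and not with siVPS4A+B#2 (0.49).

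WIPI1 (NM_017983, chromosome 17, 66417089 to 66453654, minus strand) encodes a protein that binds the lipid PI3P on the phagophore. Its NT libraries read 33.3, 29.9, 28.7 and 29.7 RPM and its siCTRL#1 libraries 41.25, 42.8, 41.15, 41.0 and 41.7. With siVPS4A+B#1 it read 70.3, 65.3, 49.4 and 70.05, and with siVPS4A+B#2 62.9, 54.2, 60.4 and 68.5. The siCTRL#1 libraries lay above all NT libraries, by 0.42 ± 0.12 (adjusted p = 0.011, under the fold threshold), and the combined conditions lay above both.

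Against NT, WIPI1 was called higher in every silenced condition but siVPS4A#2. The values were 0.63 ± 0.13 with siVPS4A#1, 0.96 ± 0.12 with siVPS4B#1, 0.64 ± 0.12 with siVPS4B#2, 1.03 ± 0.12 with siVPS4A+B#1 and 0.99 ± 0.12 with siVPS4A+B#2. The siVPS4B#2 call was lost without replicate 1 and without its own library of that replicate (lowest value 0.53). Against siCTRL#1 it was called with siVPS4A+B#1 (0.61 ± 0.12, adjusted p = 8.2e-05) and reached 0.57 ± 0.12 (adjusted p = 0.00014, fold 1.48) with siVPS4A+B#2. The siVPS4A+B#1 call sits at the threshold, and was lost by scaling with library totals (0.43), without replicate 1 or 4, without siCTRL#1 replicate 1 or 5, and without siVPS4A+B#1 replicate 4. The siCTRL#2 libraries (29.4 to 34.9) lay near NT, and against them both pairs were called (0.96 and 0.92).

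OPTN had the widest range of the 9 genes, 2.28 between the lowest and the highest condition mean on the log2 scale. The gene (NM_021980, chromosome 10, 13141449 to 13180308, plus strand), whose printed promoter holds the overlapping NF-kB matches, encodes optineurin, a ubiquitin-binding receptor for mitochondria and bacteria that TBK1 phosphorylates. It read 24.2, 20.1, 22.4, 26.4 and 17.7 RPM in siCTRL#1 cells and 31.0, 23.8, 16.8 and 22.3 in NT cells. The siVPS4A+B#1 libraries had 45.4, 41.2, 64.4 and 65.5, and the siVPS4A+B#2 libraries had 82.6, 84.3, 139.5 and 98.95. In both combined conditions every library was above every library of the other 7 conditions, the highest of which was siVPS4B#2 replicate 2 at 40.9.

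Against siCTRL#1, OPTN was higher by 1.18 ± 0.17 with siVPS4A+B#1 (adjusted p = 4.8e-07) and by 2.07 ± 0.17 with siVPS4A+B#2 (adjusted p = 6.6e-13). Within batches the values ranged from 0.88 to 1.49 and from 1.73 to 2.59, higher in 4 of 4 batches each. Both calls held with every alternative setting tried, siCTRL#2 as reference included. Against NT the values were 1.17 ± 0.17 (adjusted p = 6.8e-07) and 2.06 ± 0.17 (adjusted p = 1.2e-12).

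The pairs differed in OPTN. The siVPS4A+B#1 libraries lay below all siVPS4A+B#2 libraries, by 0.89 ± 0.17 (adjusted p = 0.00012), where 7.53% of all genes were called lower, and by 0.59 to 1.10 within batches. Among single duplexes, siVPS4A#1 (29.9, 32.5, 33.5 and 28.2) exceeded siVPS4A#2 (18.1, 20.7, 24.7 and 18.6) by 0.64 ± 0.18 (adjusted p = 0.0053) without overlap. In both contrasts the side with siVPS4A#1 had more OPTN and less VPS4A (2.19 against 7.88 RPM between single duplexes, 5.03 against 19.96 between pairs). The pairs also differed in their VPS4B duplex, siVPS4B#2 in siVPS4A+B#2 and siVPS4B#1 in siVPS4A+B#1. Their remaining VPS4B was 1.285 and 0.54 RPM in that order. For the pairs, the VPS4A duplex, the VPS4B duplex and the remaining VPS4A and VPS4B thus cannot be told apart. Duplex and remaining VPS4A cannot be told apart for the single duplexes either. Beside siCTRL#1 cells (VPS4A 190.0, OPTN 22.2), siVPS4A#2 had 7.88 of VPS4A and 20.6 of OPTN. With siVPS4B#1 and siVPS4B#2, VPS4A stood at 205.1 and 210.4 and OPTN at 29.1 and 32.8. The parts of the duplexes and of the remaining VPS4A and VPS4B were not tested. In order of mean level, siCTRL#2 (19.6), siVPS4A#2 (20.6), siCTRL#1 (22.2), NT (23.5), siVPS4B#1 (29.1), siVPS4A#1 (31.0) and siVPS4B#2 (32.8) overlapped with their neighbours, while siVPS4A+B#1 (54.1) and siVPS4A+B#2 (101.3) stood apart from those below them.

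The 5 genes whose mean levels over the 9 conditions were most like those of OPTN, among 8323 genes with a mean of at least 10 RPM over the 37 libraries, were HSD17B12 (Pearson r = 0.99), CYP4F3 (0.98), GCLM (0.97), MOGS (0.97) and IL18 (0.96). The 9 points are condition means that share batches, and the correlation is a description. GCLM, a subunit of the enzyme that starts glutathione synthesis, went from 18.1 ± 2.71 (SD, n = 5) in siCTRL#1 cells to 77.6 ± 20.3 and 159.9 ± 28.9 (SD, n = 4 each) in the pairs. CYP4F3 met that minimum through the pairs, where its means were 23.2 and 76.9 RPM, against 2.26 to 10.8 in the other 7 conditions. IL18, an inflammatory cytokine, went from 135.5 ± 15.3 to 359.6 ± 101.8 and 558.1 ± 133.7.

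CALCOCO2 (NM_005831, chromosome 17, 46908380 to 46943884, plus strand), which encodes NDP52, a receptor for bacteria and mitochondria, was covered by few reads, from 11 to 45 in a library. It read 3.20, 2.045, 2.54, 3.19 and 1.80 RPM in siCTRL#1 cells. With siVPS4A+B#1 it read 4.83, 4.72, 4.18 and 5.715, and with siVPS4A+B#2 3.89, 5.12, 4.32 and 5.41, so that all 8 libraries were above siCTRL#1. The differences were 0.72 ± 0.18 (adjusted p = 0.0015) and 0.67 ± 0.18 (adjusted p = 0.0021), and 0.93 and 0.88 against NT.

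Both calls of CALCOCO2 against siCTRL#1 were lost by scaling with library totals and with siCTRL#2 as reference (0.54 and 0.50), and that of siVPS4A+B#2 also without replicate 2 (lowest value 0.57). The call of siVPS4B#1 against NT (0.62 ± 0.18, adjusted p = 0.0074) was lost without replicate 1 or 3, or without the NT library of either or siVPS4B#1 replicate 3. One read is a sizeable share of such levels, and 1 added to the values draws the fold changes toward 0.

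TAX1BP1 (NM_006024, chromosome 7, 27778950 to 27884183, plus strand), a relative of CALCOCO2 that acts as a receptor for ubiquitinated aggregates, differed between the pairs. It read 6.24, 7.91, 9.19 and 9.53 RPM with siVPS4A+B#1 and 3.045, 3.63, 4.96 and 4.57 with siVPS4A+B#2, on 17 to 77 reads a library. The groups did not overlap, and the difference was 0.87 ± 0.17 (adjusted p = 0.00017), between 0.77 and 0.94 in each of 4 batches. It was the only member called higher in siVPS4A+B#1 against siVPS4A+B#2, where 9.92% of all genes were. Against siCTRL#1 (4.69 to 6.23) neither pair passed the fold threshold, with 0.46 ± 0.17 (adjusted p = 0.031) and -0.41 ± 0.17 (adjusted p = 0.046). The siCTRL#2 libraries (2.83 to 5.51) had a difference of -0.44 ± 0.17 from siCTRL#1 (adjusted p = 0.049), also under the fold threshold. With siCTRL#2 as the reference, chosen after the data were seen, TAX1BP1 was called higher with siVPS4A+B#1 (0.89, adjusted p = 6.07e-05), and the value for siVPS4A+B#2 was 0.03 (adjusted p = 0.917). The place of the second pair relative to the controls thus depended on which control duplex was used.

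NBR1 (NM_005899, chromosome 17, 41322498 to 41363708, plus strand) encodes a receptor for aggregates and peroxisomes. It was not called against siCTRL#1 in any condition. Its highest condition was siVPS4B#1, with 224.6, 222.5, 225.8 and 219.0 RPM, against 148.7, 130.2, 118.2 and 148.2 in NT cells and 129.5 to 185.2 in siCTRL#1 cells. The difference of siVPS4B#1 from NT was 0.71 ± 0.12 (adjusted p = 6.5e-06), from 0.56 to 0.93 within batches. Against siCTRL#1 it was 0.48 ± 0.11 (adjusted p = 0.0017), without overlap and under the fold threshold. The siCTRL#2 libraries read 172.0 to 215.5 RPM. With siCTRL#2 as the reference, chosen after the data were seen, NBR1 differed by 0.07 in siVPS4A+B#1 and by -0.05 in siVPS4A+B#2. Against NT, siVPS4A+B#1 was also called (0.60 ± 0.12, adjusted p = 5.9e-05), a call lost by scaling with library totals (0.50), without replicate 1 or 3, and without siVPS4A+B#1 replicate 1 or NT replicate 3.

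**Figure D2:**
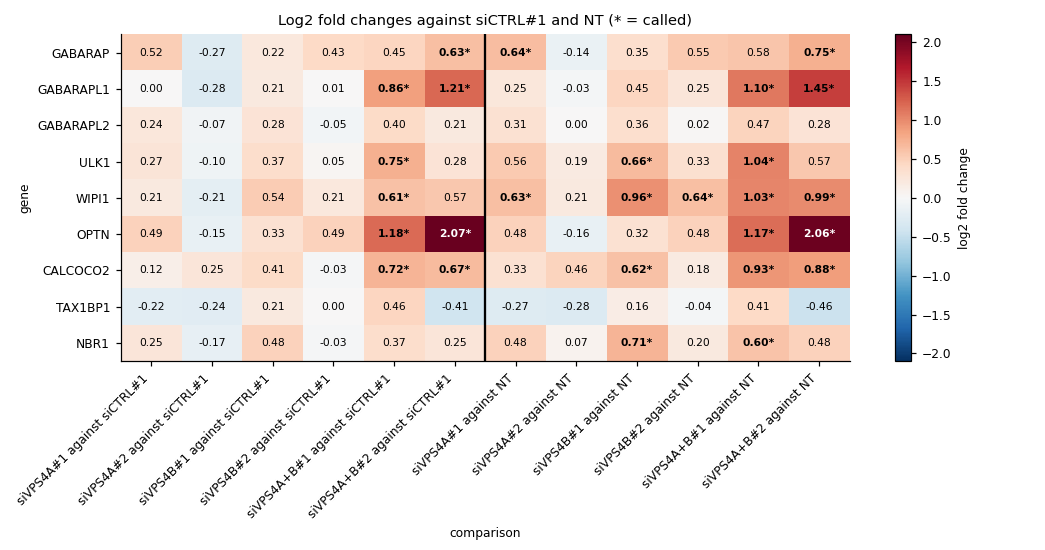
Log2 fold change of each gene (rows) for the 6 silenced conditions against siCTRL#1 (left of the line) and NT (right), in colour from blue (lower) to red (higher); an asterisk marks calls. Calls against siCTRL#1 lie in the combined conditions, 5 with siVPS4A+B#1 and 4 with siVPS4A+B#2.

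Whether the pairs exceeded the sum of both single effects was tested as an interaction, the effect of a pair minus the effects of its own duplexes, all against siCTRL#1 on the log2 scale. It was called for GABARAPL1 and OPTN in both pairs, 2 of 9 genes each, where 3.82% and 9.64% of all genes were called higher. For GABARAPL1 it was 0.93 ± 0.19 (adjusted p = 0.00089) in siVPS4A+B#1 and 1.197 ± 0.18 (adjusted p = 6.9e-06) in siVPS4A+B#2. For OPTN it was 1.01 ± 0.24 (adjusted p = 0.0062) and 1.10 ± 0.24 (adjusted p = 0.00093). The first OPTN call was lost without replicate 1 (0.94) and without replicate 4 (0.85). Within batches GABARAPL1 gave 0.08 to 1.55 (4 batches) and 1.06 to 1.69 (3 batches), and OPTN gave 0.23 to 1.51 and 1.02 to 1.70. VPS4A itself was higher in siVPS4A+B#1 than with siVPS4A#2 (1.13, adjusted p = 0.00011). It was also higher in siVPS4A+B#2 than with siVPS4A#1 (0.87, adjusted p = 0.0053). Silencing of VPS4A was thus not equal in pairs and single duplexes, here and in the direct comparisons below.

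For the other 7 genes the interaction was not called. WIPI1 had 0.28 (95% interval -0.06 to 0.63) and 0.14 (-0.20 to 0.49), and NBR1 had 0.06 (-0.27 to 0.39) and 0.03 (-0.30 to 0.36). GABARAP had 0.49 (0.09 to 0.90, adjusted p = 0.15) and -0.32 (-0.72 to 0.08), so that its estimates lay on opposite sides of 0 in the pairs.

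**Figure D3:**
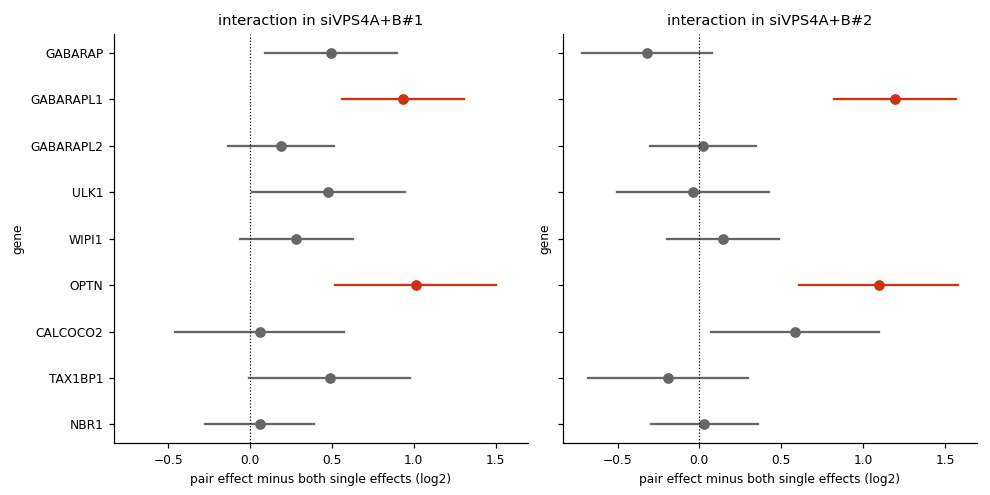
Effect of each pair minus both single effects of its duplexes, in log2 units, for the 9 genes; points are estimates, lines are 95% intervals and red marks calls. Only the intervals of GABARAPL1 and OPTN lie wholly to the right of 0 in both panels.

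Direct comparison of each pair with its own single duplexes gave the same 2 genes in every case. GABARAPL1 was higher by 1.14 than with siVPS4A#2 and by 0.65 than with siVPS4B#1, and by 1.21 and 1.198 than with siVPS4A#1 and siVPS4B#2. OPTN was higher by 1.34, 0.86, 1.58 and 1.58 in that order. The number of members called higher was 6 against siVPS4A#2 (11.4% of all genes), 2 against siVPS4B#1 (4.85%), 2 against siVPS4A#1 (8.55%) and 3 against siVPS4B#2 (11.8%). WIPI1 was higher by 0.82 than with siVPS4A#2 but differed from siVPS4B#1 by 0.07 (95% interval -0.18 to 0.32). ULK1 and TAX1BP1 were likewise called against siVPS4A#2 (0.85 and 0.69) and not against siVPS4B#1 (0.38 and 0.25).

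Among the controls no member was called. For siCTRL#1 against NT, limma, edgeR and DESeq2 called 0 of 9, where 4.84% of all genes were called higher and 4.21% lower. At an unadjusted limma p under 0.05, 2 stood higher, WIPI1 and NBR1. For siCTRL#2 against siCTRL#1 the same tools called 0 of 9, where 5.84% of all genes were called higher and 11.0% lower. At an unadjusted limma p under 0.05, 3 stood higher and 2 lower. The same genes passed at adjusted p under 0.05 without the fold requirement. GABARAPL1, GABARAPL2 and NBR1 stood higher, and WIPI1 and TAX1BP1 lower. At that threshold siVPS4A+B#2 against siCTRL#1 had 5 higher and 1 lower, and siVPS4A+B#1 had 9 higher. For the control comparisons, shares of all genes without the fold requirement or at an unadjusted p are not given here. Between the VPS4B duplexes, where 7.89% of all genes were called higher in siVPS4B#1, the largest difference among the 9 genes was that of NBR1, 0.51 ± 0.12 (adjusted p = 0.0012), under the fold threshold.

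Other genes of the pathway were taken from lists of 77 symbols, 72 of them measured, of which 63 were not members. With siVPS4A+B#1 15 of the 63 (23.8%) were called higher and 1 lower, beside 10.6% and 11.5% of all genes. With siVPS4A+B#2 18 (28.6%) were called higher and 2 lower, beside 12.8% and 15.9%. The medians were 0.22 and 0.26, beside -0.02 for all genes in each. These lists too were chosen with earlier results of these data known, and their counts are descriptions. Among the single duplexes, siVPS4A#1 gave 8 higher (12.7%, beside 9.57% of all genes), siVPS4B#1 8 higher and 3 lower (12.7% and 4.76%, beside 5.61% and 7.33%), and siVPS4B#2 4 lower (6.35%, beside 4.56%). The siCTRL#2 duplex itself gave 7 higher and 8 lower against siCTRL#1 (11.1% and 12.7%, beside 5.84% and 11.0%). In all 4 comparisons of the pairs, 6 of the 63 were higher (SQSTM1, WDR45, ATG9A, ATG4A, PLEKHM1 and TFE3) and 1 lower (ATG4C), beside 3.96% and 4.16% of all genes.

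SQSTM1, which encodes p62, the receptor for ubiquitinated protein that also carries KEAP1, had the largest difference of the 72 genes in both pairs. It went from 620.6 ± 112.9 (SD, n = 5) RPM in siCTRL#1 cells to 5982 ± 1502 and 6509 ± 1749 (SD, n = 4 each) in the pairs. The log2 differences were 3.25 ± 0.15 and 3.37 ± 0.15, and the interactions 2.74 and 2.475. Of 20 receptors measured, members included, 4 were called higher in each pair (20%, beside 10.6% and 12.8% of all genes). The members OPTN and CALCOCO2, already counted above, are among them in both pairs, so this share is not separate from the member counts. The other called receptors were SQSTM1 and CCPG1 with siVPS4A+B#1, and SQSTM1 and RETREG1 with siVPS4A+B#2. SQSTM1 was also called higher with siVPS4B#1 alone (0.59 ± 0.15, adjusted p = 0.0022). Against siCTRL#1, CCPG1 was also called higher with siVPS4B#1 alone, and RETREG1 with siVPS4A#1 alone.

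The steps are short lists, and each count stands beside the same 10.6% and 12.8% of all genes called higher and 11.5% and 15.9% called lower with siVPS4A+B#1 and siVPS4A+B#2. The list of PI3P effectors and lipid supply had 5 of 10 genes higher with siVPS4A+B#1 and 6 of 10 with siVPS4A+B#2. WDR45, a relative of WIPI1, rose by 1.16 ± 0.24 and 1.26 ± 0.24, and ATG9A, a lipid scramblase of the vesicles that seed the phagophore, by 0.60 ± 0.13 and 0.62 ± 0.13. ATG9A was low with siCTRL#2, at 29.0 ± 4.49 RPM against 55.9 ± 3.62 with siCTRL#1. In the conjugation list, ATG4A, a protease that processes GABARAP proteins, rose by 0.82 ± 0.17 and 0.70 ± 0.17, while its paralog ATG4C fell by 0.73 ± 0.14 and 0.94 ± 0.14 on the log2 scale. That list had 2 of 10 higher and 1 lower with siVPS4A+B#1, and 3 and 1 with siVPS4A+B#2.

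In the fusion list, 2 and 3 of 8 genes were called higher, PLEKHM1, an adaptor that links RAB7 to ATG8, in both (0.62 ± 0.13 and 0.90 ± 0.13), and STX17 was lower with siVPS4A+B#2 (-1.06 ± 0.15). STX17 was also called lower with siVPS4B#2 alone (-1.28 ± 0.15), from which the pair differed by 0.23 (95% interval -0.09 to 0.54). Of 9 kinases and transcription factors 2 and 3 were higher, TFE3, a transcription factor of lysosomal and autophagy genes, by 1.11 ± 0.16 and 0.91 ± 0.16. The class III PI3K list had 2 and 1 of 8 higher, and the initiation list had ULK1 and RB1CC1 higher of 4 with siVPS4A+B#1. Neither was called with siVPS4A+B#2 (0.28 and 0.21). ATG4A was also higher with siVPS4A#1 alone, at 11.7 ± 1.54 RPM against 5.02 ± 1.04 in siCTRL#1 cells, beside 9.70 ± 1.25 and 8.95 ± 1.97 in the pairs. It was called lower with siVPS4B#2 alone (-0.85 ± 0.17). Against siCTRL#1, PLEKHM1 was also called higher with siVPS4A#1 alone (0.64 ± 0.12), and WDR45 (0.69 ± 0.24) and TFE3 (0.62 ± 0.16) with siVPS4B#1 alone.

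**Figure D4:**
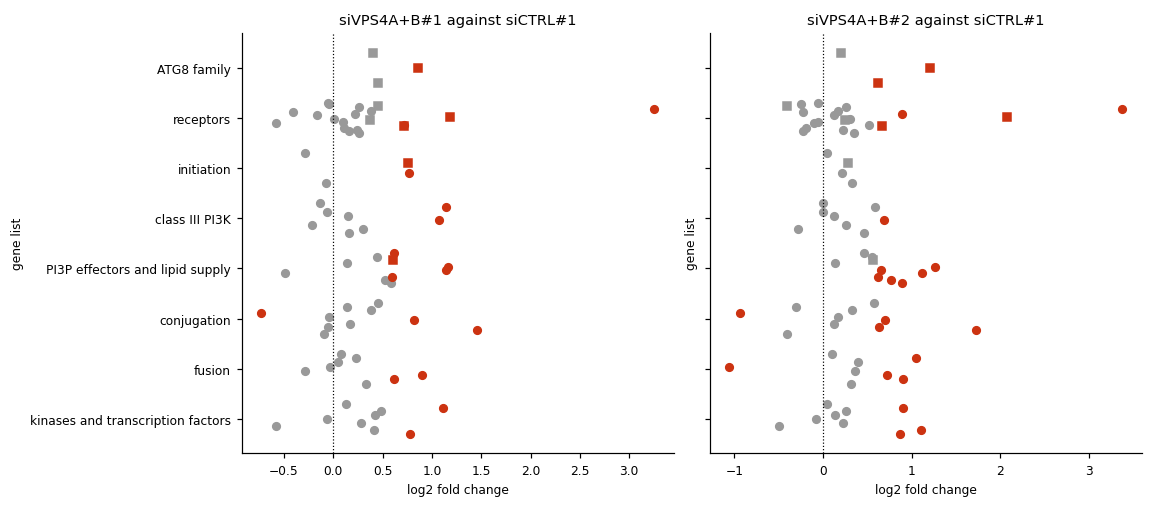
Log2 fold change of 72 autophagy genes by list (rows) for both pairs against siCTRL#1; squares are the 9 members, circles the other genes, and red marks calls. SQSTM1, among the receptors, lies farthest to the right at 3.25 and 3.37.

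Over the 9 condition means, the levels of the members did not move as 1 block. The correlation on the log2 scale was 0.92 between WIPI1 and ULK1, 0.89 between GABARAPL2 and NBR1 and 0.82 between GABARAPL1 and CALCOCO2. OPTN had 0.80 with GABARAPL1, 0.77 with WIPI1 and 0.27 with GABARAPL2, and TAX1BP1 had 0.05 with OPTN and -0.07 with GABARAPL1. These describe 9 points that share batches, without a test.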

How the data were processed

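The authors amplified total RNA with the Ion AmpliSeq transcriptome panel, sequenced it on an Ion Proton, aligned reads to the panel's hg19 transcripts and counted them with HTSeq 0.6.0, and per the labels used DESeq2 1.18.1. The deposited signal is each gene's share of a library's reads over 12627 genes, and how counts became shares is not given in the sources used here. Reads were recovered as whole multiples of the smallest step. All values up to 20 reads were whole within 0.1 read, and 50.5% of values were printed precisely enough to test, 100% of them whole within 0.2. A floor of 3 reads equals at most 0.589 RPM, for counting error only. Panel amplicons carry no molecular identifiers.

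Symbols came from RefSeq for 12474 genes. Main tests used limma 3.58.1 with an intensity trend on log2(TMM-scaled RPM + 1), a pseudocount of 1, with condition and batch, on 37 libraries, since the deposited values are not counts. Batches are the replicate numbers. Deviations from condition means correlated at 0.19 on average within a number and at -0.08 between numbers, and the labels name the number as batch. Benjamini-Hochberg adjustment covered 12627 genes in each of 23 comparisons. P-values measure the spread between experiments on 1 line. Intervals are 95%. Count tests on the recovered reads used edgeR 4.0.16 and DESeq2 1.42.0. Other alternatives were no batch term, other scalings, a pseudocount of 0.1, a low-count filter, no minimum fold, only the compared conditions, the omitted library, siCTRL#2 as reference (chosen after the data were seen) and leaving out libraries and replicates. The fits were tested on simulated data.

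Genes were named by rule: the members, genes of the wider lists called the same way in all 4 comparisons of the pairs, SQSTM1, both silenced genes, and the 5 genes most like the widest-ranging member. STX17, RB1CC1, CCPG1 and RETREG1 were named, and 2 motifs added, after the values or sequences were seen. The members and lists were chosen with earlier results of these data known. Gene positions are from the GENCODE annotation on GRCh37, promoters from RefSeq on GRCh38.p14, found for 9 of 9 genes. R 4.3.3, Python 3.11.15, numpy 2.4.6, pandas 2.3.3 and matplotlib 3.10.9 were used.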

Additional observations from a re-analysis of the deposited data

Results flagged for a closer look

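Between duplexes or pairs aimed at the same target, 4 differences were called by limma. GABARAP (log2 difference 0.79) and OPTN (0.64) were higher with siVPS4A#1 than with siVPS4A#2, TAX1BP1 was higher (0.87) and OPTN lower (-0.89) with siVPS4A+B#1 than with siVPS4A+B#2. The cause of these differences was not tested. In 81 groups of 4 or 5 libraries (9 genes in 9 conditions), 1 library stood far from the rest by Dixon's criterion: GABARAPL1 in NT replicate 1, at 56.7 RPM, against 48.9 to 49.1 in the other NT libraries. Chance alone gives such a gap in about 1 in 20 groups.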

How the results depend on the processing

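Of 31 called fold changes, 20 kept their call and direction under all 53 alternatives, 35 alternative values lost a call, 115 gained one and 0 reversed. Numbers of members called moved by over 1.5 times as follows. Without a replicate block, siCTRL#2 against siCTRL#1 gave 1 (GABARAPL1), and the unblocked fit changed no other count by over 1.5 times. Scaling by library totals gave 2 for each pair against siCTRL#1 (GABARAPL1 and OPTN in both), 5 for siVPS4A#1 and 2 for siVPS4B#2 against NT. No minimum fold gave 2 for siVPS4A#1, siVPS4B#1 and siVPS4B#2 and 9 for siVPS4A+B#1 against siCTRL#1, 6 for siVPS4A#1, 3 for siVPS4B#2, 9 for siVPS4A+B#2 and 1 for siCTRL#1 against NT, 5 for siCTRL#2 against siCTRL#1, and 5 in all 4 comparisons of the pairs. The omitted siVPS4A#1 library gave 2 for siVPS4A#1 against siCTRL#1. The reference siCTRL#2, chosen after the data were seen, gave 1 for siVPS4A#1, siVPS4A#2 and siVPS4B#2, 2 for siVPS4B#1 and 4 for the siVPS4A+B#1 interaction. The cause of these moves was not tested.

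Leaving out libraries or replicates gave 0 to 1 for siVPS4A#1, siVPS4B#1 and siVPS4B#2 against siCTRL#1 and for siCTRL#2, 4 to 6 and 3 to 5 for the pairs against siCTRL#1, 2 to 4 for siVPS4B#1 and 0 to 3 for siVPS4B#2 against NT, 1 to 3 and 2 to 3 for the interactions, and 3 to 5 in all 4 comparisons of the pairs. The count of siVPS4B#1 against NT fell to 2 without replicate 1, NT replicate 1 or siVPS4B#1 replicate 3. That of siVPS4B#2 was 2 (GABARAP and OPTN) without replicate 1, 0 without its own library of that replicate, 2 without its replicate 3 or 4, and 3 without NT replicate 1. The siVPS4A+B#1 interaction kept 1 gene (GABARAPL1) without replicate 1 or 4, and 5 genes passed all 4 comparisons without siVPS4A+B#1 replicate 1. With edgeR and DESeq2 no count moved by over 1.5 times. Depth limits CALCOCO2 and TAX1BP1, read by 11 to 77 reads a library.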
